A study of Mus musculus with 12 samples.

Results

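Toll-like receptors are the innate receptors with which macrophages sense microbial molecules, and 10 of their genes (Tlr1, Tlr2, Tlr3, Tlr4, Tlr5, Tlr6, Tlr7, Tlr8, Tlr9 and Tlr13) were followed among the 22243 genes of the deposited table. They were chosen by symbol, with earlier results of these data known, and the abundances of their listed transcripts were summed per gene. The values are in TPM, the abundance unit of kallisto, which is scaled to transcript length and to the library, so that levels can be set side by side between genes. The cells were M1-activated bone marrow-derived macrophages (BM-Mɸ) on a C57Bl/6 background, grown from marrow with medium containing M-CSF, primed with IFNγ at 100 U/mL for 16 h and then given LPS, the ligand of TLR4, at 100 ng/mL for 6 h. Libraries labelled ErbB4myeKO came from 6 mice that carried the LysMCre transgene and loxP-flanked ErbB4, and libraries labelled ErbB4FF from 6 littermates with loxP-flanked ErbB4, so that 1 mouse of each genotype came from each of 6 litters. LysMCre acts in myeloid cells from the Lyz2 locus, both groups carried the floxed allele, and no untreated cells or Cre control without the floxed allele were among the libraries. The labels give neither the age nor the sex of the mice.

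The receptors divide by where they act. TLR1, TLR2, TLR4, TLR5 and TLR6 sit at the cell surface and recognise lipids, lipopeptides and flagellin, while TLR3, TLR7, TLR8, TLR9 and TLR13 sit in endosomes and recognise nucleic acids. Most signal through the adaptor MyD88 to NF-κB and IRF transcription factors, TLR3 signals through TRIF, and TLR4 uses both. The chaperone UNC93B1 carries the endosomal receptors out of the endoplasmic reticulum.

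Tlr1 and Tlr6 are neighbouring genes on chromosome 5, both on the minus strand, and share long stretches of coding sequence, which bears on how reads can be assigned between them. The coding sequences, of 2385 bases in Tlr1 and 2418 bases in Tlr6, had 9 identical runs of at least 31 bases, and the longest had 229 bases. It is shown from GENCODE M21 (GRCm38) because a read of 75 bases that falls within it cannot be assigned to 1 of the genes alone. It lies at chr5:64925537-64925765 in a coding exon of Tlr1 and at chr5:64953828-64954056 in a coding exon of Tlr6.
Tlr1 and Tlr6: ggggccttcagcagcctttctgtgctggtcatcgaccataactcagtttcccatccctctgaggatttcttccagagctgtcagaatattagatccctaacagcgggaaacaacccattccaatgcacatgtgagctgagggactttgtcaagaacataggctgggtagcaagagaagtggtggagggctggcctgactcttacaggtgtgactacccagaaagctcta
Of the 31-base words of Tlr1, 20.1% to 21.9% also occur in Tlr6, and 16.7% of those of Tlr6 occur in Tlr1. The other 8 receptors shared no 31-base word with another gene.

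Tlr1 has 2 transcripts in the table that start at different first exons and encode the same protein. ENSMUST00000059349 begins at the proximal first exon (chr5:64932667-64932761), and ENSMUST00000197315 begins further upstream with a first exon of 36 bases (chr5:64933526-64933561) and a further exon of 300 bases (chr5:64932801-64933100). RefSeq promoter windows (GRCm38.p6, 250 bases before to 50 bases after a start) were at hand for 8 of the 10 receptors, in 10 windows. The part of the distal Tlr1 window that lies before the first exon (chr5:64933564-64933808, minus strand) is shown because the transcript that starts there varied more between litters than the proximal one. Capitals mark the core of the site bound by PU.1, the myeloid master regulator (GAGGAA), which begins 23 bases before the RefSeq start.
Tlr1 distal start: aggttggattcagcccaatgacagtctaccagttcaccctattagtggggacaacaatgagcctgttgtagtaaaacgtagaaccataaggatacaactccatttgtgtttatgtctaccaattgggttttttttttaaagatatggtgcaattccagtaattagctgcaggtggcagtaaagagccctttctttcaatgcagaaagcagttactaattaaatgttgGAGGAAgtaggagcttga
The GAGGAA core was found in 4 of the 10 windows (Tlr1 distal start, Tlr8, Tlr9 and Tlr13), against 28.3% of 32851 RefSeq promoter windows, with both strands searched. The NF-κB consensus was found in the windows of Tlr2 and Tlr3 (8.46% of all windows). An interferon-stimulated response element (GAAANNGAAA) was in 1 window of Tlr6 (3.44% of all windows). A GAS element (TTCNNNGAA) was in the window of the proximal start of Tlr1 and in windows of Tlr6 and Tlr8 (8.30% of all windows), and a TATA box (TATAAA) in windows of Tlr6 and Tlr8 (13.6% of all windows), 2 of whose matches in Tlr8 overlap. A match of letters in a window is a description of the sequence, and no binding was measured.

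The labels were checked first. Erbb4, the targeted gene, was under 1 TPM in all 12 libraries (0.583 ± 0.242 TPM in libraries labelled ErbB4myeKO and 0.450 ± 0.132 in those labelled ErbB4FF; SD, n = 6), and was higher in the former in 4 of 6 litters. At this level, and with whole transcripts quantified rather than the floxed exon, Erbb4 does not check the deletion, so the genotypes below are those of the labels. Lyz2, where Cre is inserted, was lower in libraries labelled ErbB4myeKO in 5 of 6 litters and went the opposite way in litter 6 (7997 against 2964 TPM). Whether the 2 labels of litter 6 are exchanged was not tested, and an exchange would turn the sign of every ratio of that litter. Without litter 6 the log2 fold change of Tlr1 turned from -0.01 to 0.06, and the other 8 receptors tested kept their direction. In litter 6, the library labelled ErbB4myeKO was below its littermate for Fcgr1 (134 against 218 TPM) and above it for Camp (4.96 against 4.42 TPM), as in the other 5 litters. Both genes were chosen after their values were seen, and each runs the same way in 6 of 6 litters with the labels as given. They therefore cannot decide whether the labels of litter 6 are exchanged. All 8 macrophage markers were above 30 TPM in every library, from Fcgr1 (33.4 to 337 TPM) and Mertk (35.4 to 175 TPM) to C1qb (2805 to 5238 TPM). Fcgr1 was lower in libraries labelled ErbB4myeKO in 6 of 6 litters (log2 fold change -0.86, SE 0.25, limma adjusted p = 0.603) and Mertk higher in 6 of 6 (0.14, SE 0.08, limma adjusted p = 0.642), and their part in the receptor levels was not tested. Among markers of cells that express Toll-like receptors strongly, 7 of 8 B cell markers were under 1 TPM in every library, with a summed level of the 8 of 0.115 to 2.41 TPM, and the 7 markers of plasmacytoid dendritic cells summed to 12.2 to 20.8 TPM, most of it Tcf4 (9.94 to 18.5 TPM), with Siglech, which defines these cells, listed at 0 throughout. Libraries of litter 5 stand apart from the others, as described below.

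Tlr1 was the most abundant receptor transcript, and the family covered a wide range of levels. Mean abundances over the 12 libraries were 138 TPM for Tlr1, 111 for Tlr7, 77.3 for Tlr2, 55.3 for Tlr8, 34.1 for Tlr9, 25.0 for Tlr6, 18.7 for Tlr13, 16.3 for Tlr4 and 12.9 for Tlr3. Tlr5, the flagellin receptor, was listed at 0 TPM in all 12 libraries. Only 1 transcript of Tlr5 is in the table, and 98.4% of its 31-base words also occur in other Tlr5 transcripts, which were not analysed here. Tlr1, Tlr7 and Tlr2 together made up most of the summed abundance, at 28.2%, 22.8% and 15.8% of it. Tlr4, which binds the LPS given to these cells, contributed 3.33%. Without litter 5 the order was the same, with means from 146 TPM for Tlr1 and 123 TPM for Tlr7 to 14.9 TPM for Tlr3, and the shares of Tlr1, Tlr7 and Tlr2 were 27.0%, 22.7% and 16.0%.

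Of the 9 neighbour pairs in that order, none passed the corrected test, which could pass only if at least 6 of the 9 reached the smallest p. Tlr1 was above Tlr7 in 6 of 6 litters, by 0.36 ± 0.28 on the log2 scale (SD over litters), which gave the smallest p that an exact permutation test over 6 litters allows (two-sided p = 0.0312, 0.141 after Benjamini-Hochberg correction over 9 neighbour pairs). Tlr7 exceeded Tlr2 in 5 of 6 litters, and Tlr13 and Tlr4 were the closest pair, with Tlr13 higher in 3 of 6 litters (mean log2 difference 0.08 ± 0.54, exact permutation p = 0.781). The pair of Tlr3 and Tlr5 gives no comparison beyond Tlr5 being listed at 0, although it is counted among the 9. The order of the 7 pairs left held in 3 to 5 of 6 litters.

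The summed abundance of the 10 genes was 243 to 608 TPM in libraries labelled ErbB4myeKO (median 502) and 211 to 636 TPM in those labelled ErbB4FF (median 548). The genotypes overlapped, and both lowest sums were those of litter 5. Endosomal receptors took 33.4% to 54.0% of the sum (44.4% ± 7.04) in libraries labelled ErbB4myeKO and 37.3% to 58.5% (47.7% ± 8.92) in those labelled ErbB4FF. Without litter 5 the sums were 419 to 608 and 490 to 636 TPM, and the endosomal shares 46.7% ± 5.04 and 49.8% ± 8.18.

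**Figure D1:**
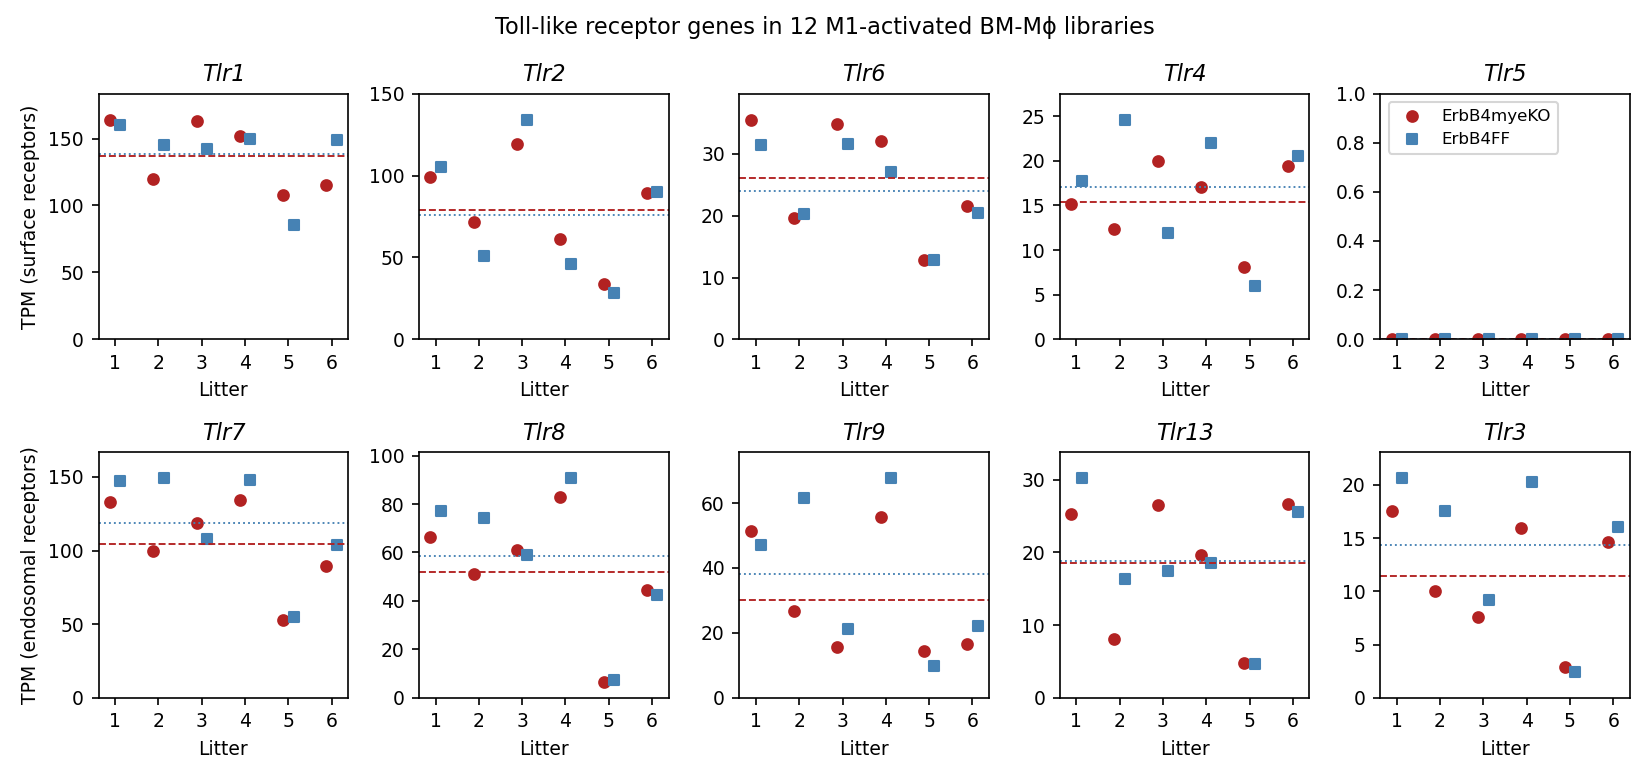
Abundance (TPM, linear axes that start at 0) of the 10 Toll-like receptor genes in each library, by litter, with surface receptors in the upper row and endosomal receptors in the lower row. Circles are libraries labelled ErbB4myeKO, squares those labelled ErbB4FF, and the dashed and dotted lines are their means. The genotypes overlap in every panel, and litter 5 holds the lowest point in each panel but that of Tlr5, which is at 0 throughout.

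No receptor transcript differed between the labelled genotypes past the threshold. The 9 genes averaging 1 TPM or more were tested among 8780 genes with limma on log2(TPM + 0.5), with litter as a block, and Tlr5 was not tested. None passed a Benjamini-Hochberg adjusted p of 0.05 (0% of all genes tested passed, and the smallest adjusted p was 0.603). None had an unadjusted p under 0.05, against 8.21% of all genes tested (721 genes), and none moved the same way in all 6 litters, against 4.82% of all genes. The 9 log2 fold changes, libraries labelled ErbB4myeKO minus those labelled ErbB4FF, had a median of -0.08, beside 0.00 for all genes tested. A p that misses the threshold does not show equal levels, so the 95% intervals are given for the individual receptors.

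Among the surface receptors, the subunits of the lipopeptide receptors had log2 fold changes from -0.01 (Tlr1) to 0.15 (Tlr2). TLR2 pairs with TLR1 or with TLR6, and the partner sets which lipopeptides are recognised. Tlr1 was at 164, 120, 163, 152, 108 and 115 TPM in libraries of litters 1 to 6 labelled ErbB4myeKO and at 160, 145, 142, 150, 85.3 and 149 TPM in their littermates. Apart from litter 5, which was low in both genotypes, the values lay between 115 and 164 TPM, with neither genotype above the other. The group means were 137 ± 25.5 and 139 ± 26.8 TPM (SD, n = 6), a log2 fold change of -0.01 (SE 0.10, 95% interval -0.24 to 0.23, limma adjusted p = 0.980). This interval corresponds to 0.844-fold to 1.17-fold.

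Tlr2 varied far more, from 28.2 to 134 TPM, and its variation followed the litter. It was at 99.0, 71.7, 119, 61.3, 33.6 and 89.5 TPM in libraries labelled ErbB4myeKO and at 105, 50.9, 134, 45.9, 28.2 and 90.2 TPM in their littermates. Litter 3 was highest and litter 5 lowest in both genotypes, and the genotypes overlapped (log2 fold change 0.15, SE 0.10, 95% interval -0.10 to 0.39, limma adjusted p = 0.675). Tlr6 ran from 12.8 to 35.5 TPM (median 26.7) in libraries labelled ErbB4myeKO and from 12.8 to 31.6 TPM (median 23.8) in the others. Its within-litter ratios had the smallest spread of the 9 receptors (SD 0.10 on the log2 scale), and the log2 fold change was 0.10 (SE 0.07, 95% interval -0.06 to 0.25, limma adjusted p = 0.673).

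Tlr4, the signalling receptor for LPS, had a wide within-litter spread. It was at 15.2, 12.4, 20.0, 17.1, 8.08 and 19.4 TPM in libraries labelled ErbB4myeKO and at 17.7, 24.6, 11.9, 22.0, 6.02 and 20.5 TPM in their littermates. Litters 2 and 3 went in opposite directions, with log2 ratios of -0.96 and 0.72. The log2 fold change of -0.08 (SE 0.21, limma adjusted p = 0.912) had a 95% interval of -0.56 to 0.40, the widest of the 9.

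All 5 endosomal receptors had log2 fold changes below 0 (median -0.16), and none passed the test. Without litter 2 the median was -0.08, with 4 of the 5 below 0. Tlr7, a receptor for single-stranded RNA, was at 133, 99.4, 119, 134, 52.6 and 89.4 TPM in libraries labelled ErbB4myeKO and at 147, 149, 108, 148, 54.6 and 104 TPM in their littermates. It was lower in the libraries labelled ErbB4myeKO in 5 of 6 litters, with litter 3 the exception (log2 fold change -0.16, SE 0.09, 95% interval -0.38 to 0.05, limma adjusted p = 0.639). Tlr8, the closest relative of Tlr7, which in mice responds weakly to the ligands of human TLR8, was at 66.5, 51.2, 61.0, 82.7, 6.65 and 44.5 TPM against 77.3, 74.3, 59.0, 90.6, 7.29 and 42.3 TPM. The 2 libraries of litter 5 were far below the other 10 and close to each other, and the genotypes overlapped (log2 fold change -0.15, SE 0.09, limma adjusted p = 0.650).

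Tlr9, the receptor for unmethylated CpG DNA, varied widely between litters in both genotypes. Litters 1, 2 and 4 were at 51.4, 26.6 and 55.7 TPM in libraries labelled ErbB4myeKO and at 47.1, 61.6 and 67.6 TPM in their littermates. Litters 3, 5 and 6 were at 15.6, 14.3 and 16.6 TPM against 21.3, 9.81 and 22.1 TPM. Litter 2 gave the lowest ratio of any receptor (log2 ratio -1.20), and only Tlr4 had a larger SE (log2 fold change of Tlr9 -0.28, SE 0.20, 95% interval -0.75 to 0.19, limma adjusted p = 0.684). Tlr13, a mouse receptor for bacterial ribosomal RNA, was at 4.78 to 26.7 TPM (median 22.5) against 4.62 to 30.2 TPM (median 18.0), with a log2 fold change of -0.07 (SE 0.18, limma adjusted p = 0.909).

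Tlr3, the receptor for double-stranded RNA, had the smallest p of the family. It was at 17.5, 10, 7.63, 15.9, 2.94 and 14.6 TPM in libraries labelled ErbB4myeKO and at 20.6, 17.5, 9.21, 20.3, 2.45 and 16.0 TPM in their littermates. It was lower in the former in 5 of 6 litters, and litter 5, with the lowest values, was the exception. The log2 fold change was -0.25 (SE 0.13, 95% interval -0.55 to 0.05, limma p = 0.0869, adjusted p = 0.614), and the exact permutation test over litters gave p = 0.0938. With the most abundant transcript of each gene in place of the sum, the log2 fold change of Tlr3 was -0.05 (limma adjusted p = 0.930).

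With the labels as given, litter 2 had the lowest within-litter ratio of 7 of the 9 receptors (Tlr3, Tlr4, Tlr6, Tlr7, Tlr8, Tlr9 and Tlr13). For Tlr6 (-0.04 in litter 2, 0.07 in litter 6) and Tlr1 (-0.28 in litter 2, -0.37 in litter 6) which litter is lowest depends on the direction of litter 6. Without litter 2 the log2 fold changes of Tlr1, Tlr4 and Tlr13 turned to 0.04, 0.10 and 0.10, those of Tlr9, Tlr7, Tlr8 and Tlr3 went to -0.09, -0.08, -0.07 and -0.15, and no receptor had an unadjusted p under 0.05 in limma. Without litter 3, Tlr7 had an unadjusted p under 0.05, and without litter 5 both Tlr3 and Tlr9 had one. The adjusted p of a receptor was at least 0.499 in every fit with limma.

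**Figure D2:**
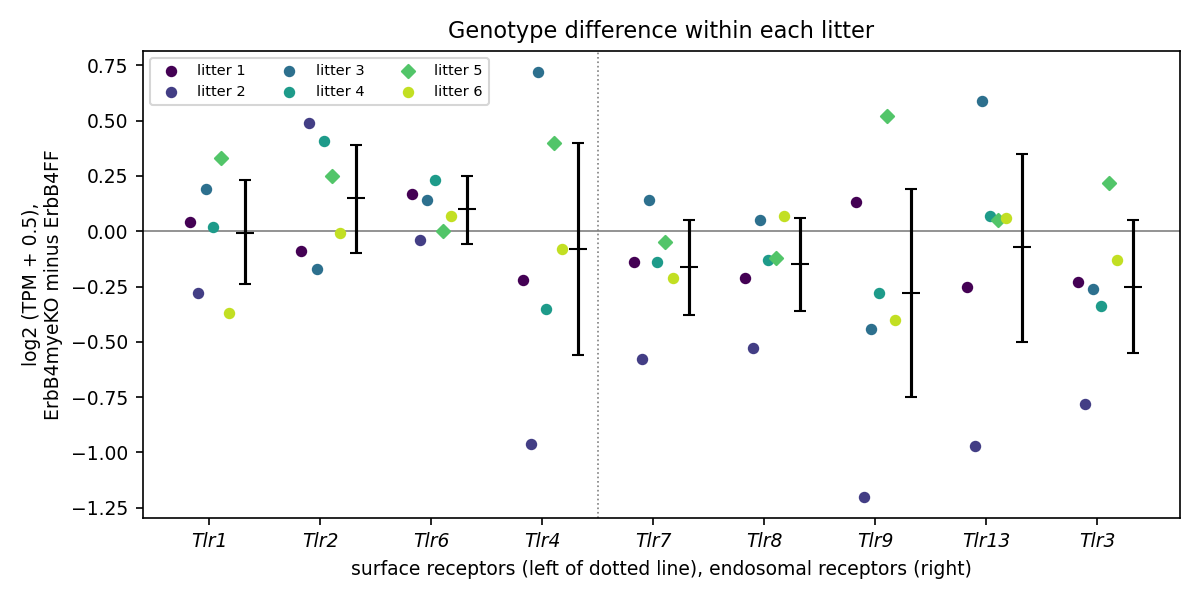
Difference of log2(TPM + 0.5) between the 2 libraries of each litter (ErbB4myeKO minus ErbB4FF by label) for the 9 Toll-like receptor genes over 1 TPM, with litter 5 as diamonds, and the limma estimate with its 95% interval as black bars. Every interval includes 0, and with the labels as given the lowest point of Tlr3, Tlr4, Tlr6, Tlr7, Tlr8, Tlr9 and Tlr13 is that of litter 2.

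The SD of the litter means was larger than that of the within-litter ratios for most receptors when litter 5 was included. These SDs are on unlike scales, since averaging littermates lowers an SD and taking their difference raises it. Equal values therefore do not mean equal variation between and within litters. The SD of the litter means exceeded that of the within-litter ratios for 7 of the 9 receptors, was the same for Tlr1 (0.27 each) and was below it for Tlr4 (0.54 against 0.59, all on the log2 scale). It was largest for Tlr8 (1.30 against 0.22), followed by Tlr3 (0.99 against 0.32) and Tlr13 (0.93 against 0.52). Without litter 5 it exceeded the SD of the ratios for 5 of the 9 (Tlr2, Tlr3, Tlr6, Tlr8 and Tlr9). The median SD over all genes tested was 0.41 for litter means and 0.34 for ratios, and without litter 5 it was 0.31 for litter means and 0.34 for ratios.

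Much of this came from litter 5, whose 2 libraries were lower than the other 10 for each of the 9 receptors. As a background, 19.9% of all genes tested were lower in both libraries of litter 5 than in the other 10. Mean TPM in the other litters was 9.31-fold that in litter 5 for Tlr8, 5.55-fold for Tlr3 and 4.57-fold for Tlr13. The fold of mean TPM was 3.20 for Tlr9, 2.81 for Tlr2, 2.57 for Tlr4, 2.30 for Tlr7, 2.15 for Tlr6 and 1.51 for Tlr1. Litter 5 also differed from the others by transcript length. The median difference of litter 5 from the other litters was 0.88 (log2) for 787 genes with a principal transcript under 1000 bases and -0.71 for 1364 genes with one of at least 5000 bases. For 1978 genes with lengths in the range of the receptors (2783 to 4096 bases) it was -0.12, while the median of the 9 receptors was -1.40 and each of the 9 was below -0.12. By definition of a median, as many of the 1978 genes lie below -0.12 as above it, and their spread was not examined. Neutrophil markers summed to 185 to 215 TPM in litter 5 and 39.7 to 371 TPM in the others, with Ly6g at 0.448 TPM or less in every library. Of the 4 neutrophil markers tested, Camp (10.5 and 5.87 TPM) and Ngp (18.4 and 16.4 TPM) were higher in litter 5 than in the other 10 libraries, and Camp was also higher in libraries labelled ErbB4myeKO in 6 of 6 litters (log2 fold change 0.45, SE 0.18, limma adjusted p = 0.603). Of the 8 macrophage markers, 3 (Adgre1, Csf1r and Mertk) were lower in both libraries of litter 5 than in the other 10, and none was higher than the other 10 in both. The part of these neutrophil and macrophage markers in the receptor levels was not tested. In bulk RNA, fewer cells of a type and less RNA per cell cannot be told apart. The part of the shift of litter 5 with transcript length in the receptor levels was not tested either. Without litter 5 the SD of the litter means was 0.36 for Tlr8, 0.45 for Tlr3, 0.49 for Tlr13 and 0.13 for Tlr1, while Tlr9 (0.79) and Tlr2 (0.52) still varied.

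**Figure D3:**
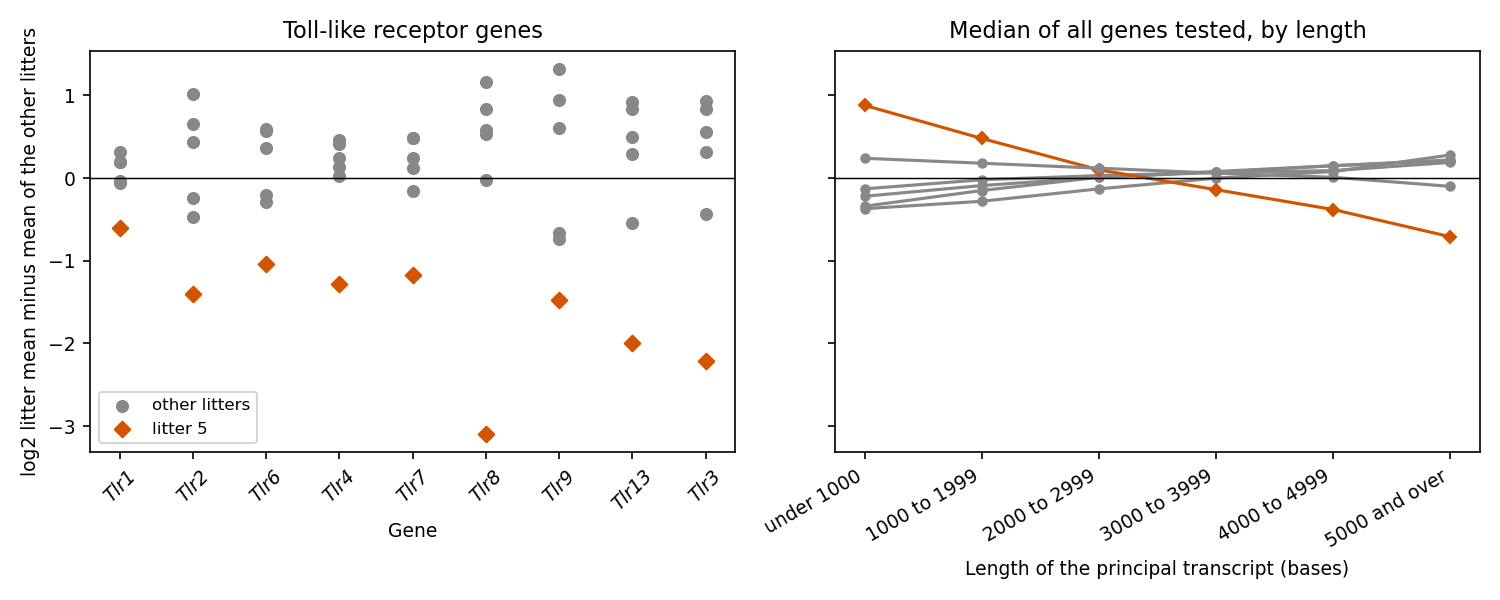
Log2 difference of each litter's mean from the mean of the other litters, for the 9 Toll-like receptor genes over 1 TPM (left) and as the median of all genes tested in 6 classes of transcript length (right), with litter 5 as orange diamonds and the other litters in grey. Litter 5 is the lowest for every receptor, from -0.60 for Tlr1 to -3.09 for Tlr8, and falls from 0.88 for the shortest to -0.71 for the longest genes.

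Tlr7, Tlr8 and Tlr13 are on the X chromosome, and Tlr7 and Tlr8 are neighbours there. Transcripts of the Y-linked gene Eif2s3y were at 23.1 to 32.4 TPM in the 8 libraries of litters 1 to 4 and listed at 0 in the 4 libraries of litters 5 and 6, in both genotypes, so sex by these transcripts did not differ within a litter and cannot be told apart from the litter. Tlr7 was at 89.4 to 104 TPM in litter 6 and 99.4 to 149 TPM in litters 1 to 4. Tlr8 was at 42.3 to 44.5 TPM in litter 6, below the 51.2 to 90.6 TPM of litters 1 to 4. Tlr13 in litter 6 (25.6 to 26.7 TPM) lay within the range of litters 1 to 4 (8.16 to 30.2 TPM).

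The ratio between receptors was steadier for some pairs than for others, described by the SD over the 12 libraries of the difference of their log2 values. Tlr1 and Tlr6 had an SD of 0.29 (0.25 without litter 5), as did Tlr1 and Tlr7 (0.18 without it). Tlr2 and Tlr9 moved apart most, with an SD of 1.10 (1.22 without it). Tlr1 and Tlr8 had an SD of 1.02, and of 0.31 without litter 5. Tlr7 and Tlr8 had an SD of 0.76 with all litters and of 0.17 without litter 5. These values share libraries and the low litter 5, and Tlr1 and Tlr6 share sequence, so they are descriptions of these 12 libraries.

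Over all 4215 genes averaging 10 TPM or more, the gene whose pattern was most like that of Tlr7 was Cttnbp2nl (SD of the log2 difference 0.10, beside a median of 0.64 over all those genes), followed by Spred1 (0.14), an inhibitor of Ras signalling. Those most like Tlr2 were Gspt1, a translation termination factor (0.16, median 0.82), and Lrrc8d (0.24). Tlr8 was most like Gm5431 (0.19, median 1.31) and Znfx1 (0.23), and Tlr9 most like the complement gene C4b (0.26, median 1.00) and Tnfsf10, which encodes TRAIL (0.31). For Tlr1 Yipf6 was among them (0.12), and the others were for Tlr3 G3bp2 and Ptk2b (0.27 and 0.29), for Tlr4 Wdr26 and Add1 (0.23 and 0.24), for Tlr6 Tmcc3 and Armc8 (0.17 and 0.19) and for Tlr13 Ly9 and Klra2 (0.38 and 0.40). Without litter 5 the SDs of these genes moved by at most 0.05, and the medians over all genes fell, to 0.39 for Tlr7, 0.59 for Tlr2, 0.47 for Tlr8 and 0.85 for Tlr9. Most of these genes were then no longer the nearest. Gspt1 still ranked 1 for Tlr2 and C4b 2 for Tlr9, whereas Cttnbp2nl ranked 5 and Spred1 30 for Tlr7, Gm5431 8 and Znfx1 23 for Tlr8, G3bp2 24 and Ptk2b 45 for Tlr3, Ly9 56 and Klra2 23 for Tlr13, and Wdr26 92 and Add1 133 for Tlr4.

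The estimates of the 2 transcripts of Tlr1 behaved differently in litter 5. The proximal transcript was at 75.7 to 115 TPM in all 12 libraries, and at 99.4 and 79.4 TPM in litter 5. The distal transcript was at 27.6 to 58.5 TPM in litters 1 to 4 and 6, and at 8.31 and 5.93 TPM in litter 5. Its share of Tlr1 was 20.7% to 36.6% in the former and 7.72% and 6.95% in the latter. Between genotypes the share differed by 1.33 ± 4.62 percentage points (SD over 6 litters, two-sided exact permutation p = 0.469). The split is a model estimate that rests on the small part of each transcript that the other lacks. Of the 31-base words, 95 of 2753 of the proximal and 201 of 2995 of the distal transcript occur in no other transcript.

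**Figure D4:**
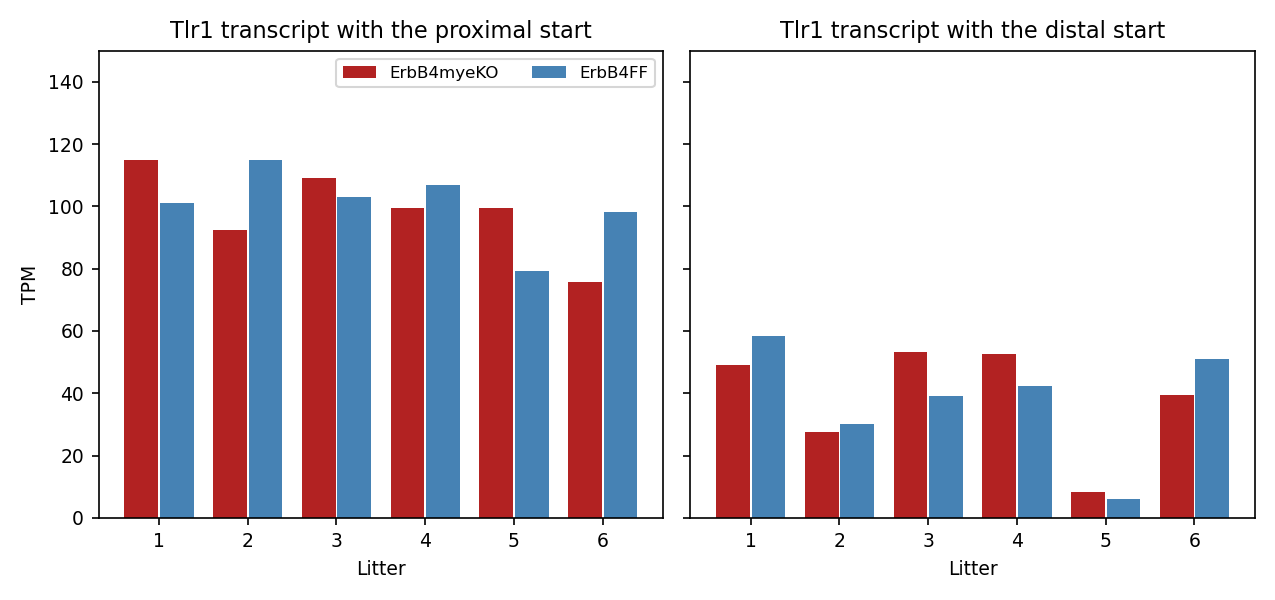
Abundance (TPM) of the Tlr1 transcripts with the proximal (left) and the distal start (right) in each library, by litter, with libraries labelled ErbB4myeKO in red and ErbB4FF in blue. The distal transcript is at 8.31 and 5.93 TPM in litter 5 and at 27.6 to 58.5 TPM elsewhere, while the proximal one stays at 75.7 to 115 TPM.

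Transcripts of Tlr3 and Tlr8 differed in litter 5 as well. Tlr3 ENSMUST00000209772 was the main Tlr3 transcript (63.6% of the Tlr3 sum), at 3.80 to 16.0 TPM in the other litters and listed at 0 in both libraries of litter 5. Of its 31-base words, 0.713% occur in no other transcript, so its split from the other Tlr3 forms, like its 0 in litter 5, is a model estimate. Tlr8 ENSMUST00000112170 was at 6.65 and 7.29 TPM in litter 5 and 33.0 to 73.6 TPM elsewhere. The other Tlr8 transcript, ENSMUST00000049023, holds no 31-base word of its own, so its split from the first is a model estimate.

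In a limma fit of 10085 transcripts averaging 1 TPM or more, added after the values were seen, 1 of the 14 receptor transcripts tested had an unadjusted p under 0.05, against 6.72% of all transcripts, and none passed the adjusted threshold. It was Tlr3 ENSMUST00000034056, a minor form at 1.17, 0.688, 0, 0.708, 0.969 and 0.546 TPM in libraries labelled ErbB4myeKO and 1.41, 1.66, 1.47, 1.61, 1.31 and 3.19 TPM in their littermates. It was lower in 6 of 6 litters, and the genotypes did not overlap, as for 6 of the 10085 transcripts tested, or 0.0595% of them (log2 fold change -0.99, SE 0.31, limma adjusted p = 0.685, two-sided exact permutation p = 0.0312, the smallest possible). Of its 31-base words, 2.72% occur in no other transcript, and it made up 9.51% of the Tlr3 sum.

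Of 67 genes in 5 lists of the pathway, 62 were tested, 28 had a log2 fold change above 0 and 34 below (median -0.04, beside 0.00 for all genes), and none passed the adjusted threshold in limma. An unadjusted p under 0.05 was reached by 3 of them (4.84%, against 8.21% of all genes tested), each lower in libraries labelled ErbB4myeKO.

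None of the 13 genes tested for folding, trafficking and co-receptors had an unadjusted p under 0.05. Cd14, which hands LPS to TLR4, was at 2929 ± 1086 against 2661 ± 1424 TPM and was lowest in both libraries of litter 5 (952 and 1130 TPM). Ly96, which encodes MD-2, the part of the TLR4 complex that binds LPS, was at 30.7 ± 9.97 against 41.8 ± 11.7 TPM. It was lower in 5 of 6 litters (log2 fold change -0.45, SE 0.22, limma adjusted p = 0.603), with 15.3 against 52.0 TPM in litter 2. Unc93b1 was at 345 ± 63.6 against 392 ± 95.5 TPM (log2 fold change -0.15, limma adjusted p = 0.707). None of the 12 genes of ligand processing and lysosomal partners had an unadjusted p under 0.05 either (5 above 0 and 7 below).

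Adaptors and proximal kinases had 17 genes tested, 10 above 0 and 7 below, again with none under an unadjusted p of 0.05. Myd88 was at 173 ± 22.2 against 186 ± 15.2 TPM, and Ticam1, which encodes TRIF, at 22.6 ± 4.02 against 24.0 ± 4.69 TPM. Irak4, the first kinase recruited by MyD88, was at 11.1 ± 0.441 against 11.1 ± 1.43 TPM, and Irak1, its substrate, at 5.17 ± 3.53 against 5.53 ± 5.29 TPM, with a range of 0.00749 to 13.2 TPM. In litter 5, 9 of the 17 genes were below the other 10 libraries in both libraries (19.9% of all genes tested were), among them Irak2 (22.5 TPM in each, against 72.3 TPM or more) and Ikbke (42.8 and 38.8 TPM, against 96.4 TPM or more), which were chosen after their values were seen. Myd88, Ticam1 and Irak4 lay within the range of the other litters there, and the 18 genes of the list summed to 560 and 588 TPM in litter 5 and to 984 to 1328 TPM elsewhere. The count below the other 10 libraries was 6 of 13 for folding, trafficking and co-receptors (with 1 above), 5 of 8 for negative regulators (with 1 above), 3 of 12 for transcription factors (with 3 above) and 1 of 12 for ligand processing and lysosomal partners (with 2 above), and 20.2% of all genes tested were above the other 10.

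Among 8 tested negative regulators, Trafd1, which restrains signalling downstream of TLR and RNA sensors, was at 111 ± 22.6 against 134 ± 21.3 TPM (log2 fold change -0.28, SE 0.10, limma adjusted p = 0.603). Among 12 transcription factors, Fos, a subunit of AP-1, was at 6.37 ± 1.67 against 9.84 ± 4.20 TPM (-0.54, SE 0.15, limma adjusted p = 0.603). Irf7, which drives type I interferon genes downstream of TLR7 and TLR9, was at 645 ± 210 against 806 ± 208 TPM (-0.36, SE 0.15, limma adjusted p = 0.603). Each was lower in 5 of 6 litters, and the genotypes overlapped.

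Of the 2 other Toll-like receptor genes in the table, Tlr11 was at most 0.161 TPM. Tlr12, which like Tlr11 recognises profilin of protozoa, was at 1.03 ± 0.631 TPM against 1.88 ± 1.15 TPM (log2 fold change -0.60, SE 0.27, limma adjusted p = 0.603). It was lower in libraries labelled ErbB4myeKO in 5 of 6 litters and, unlike the 9 receptors above, was not low in litter 5 (2.08 and 2.27 TPM).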

How the data were processed

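RNA of M1-activated BM-Mɸ from 6 litters was sequenced as stranded, single-end 75-base reads. The authors pseudoaligned the reads with kallisto (mm10 per the submitters' notes; version and transcriptome release not given in the sources used here) and deposited TPM of principal transcripts, which sum to 59.0% to 74.7% of the TPM of a library. The study states an approximate common depth, but the depth of each library is not in the table, as TPM keep none, so that no counting interval is given and precision rests on the spread between litters. The authors' sleuth statistics (p, q, ratios, means and variance terms) stand in the same table and were not used.

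The table has 29213 lines, of which 405 repeat a transcript. TPM of the 28808 transcripts were summed to 22243 genes. The 8780 genes that averaged 1 TPM or more entered a linear model of log2(TPM + 0.5) on genotype and litter, litter being a block as in the study (R 4.3.3, limma 3.58.1, moderated with a mean-variance trend), and p-values were adjusted over all genes by Benjamini-Hochberg. The fit was tested on simulated data. Sex, also a covariate of the study, is not on the labels. Within-litter ratios and neighbours were tested by exact permutation over the 64 swaps of 6 litters (smallest p 0.0312). Libraries were paired by the litter number of their titles, and the deviations of littermates from the gene means correlated at 0.273 to 0.774. Coordinates and shared 31-base words are from GENCODE M21, and promoters from RefSeq. Python 3.11.15, pandas 2.3.3, numpy 2.4.6, scipy 1.17.1 and matplotlib 3.10.9 were used. Alternatives were the block left out, a covariate from 4 Y-linked transcripts, pseudocounts of 0.1 and 1, no filter or 5 TPM, 2 rescalings, no trend, the most abundant transcript, each litter left out and, chosen after seeing the data, values centred by transcript length.

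The receptors and lists were chosen with earlier results of these data known. Named were the 10 receptors, 7 pathway genes whatever their values (Cd14, Ly96, Unc93b1, Myd88, Ticam1, Irak1, Irak4), pathway genes with an unadjusted p under 0.05 (at most 5 a list), the 2 nearest genes of each receptor, Erbb4, Lyz2, Tlr11 and Tlr12. A gene that this rule names is not reported here. Single markers and transcripts were named after their values were seen. Beside the markers in the results, conventional dendritic cell markers summed to 7.17 to 40.4 TPM, with Xcr1 at 2.56 to 29.0 TPM (higher in libraries labelled ErbB4myeKO in 5 of 6 litters, log2 fold change 0.63, SE 0.23, limma adjusted p = 0.603) and Flt3 at 0.0789 TPM or less, macrophage markers to 5551 to 8782 TPM, and Y-linked transcripts to 0.202 to 49.2 TPM.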

Additional observations from a re-analysis of the deposited data

Results flagged for a closer look

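In groups of 6 libraries, or of 6 within-litter ratios, 10 of 45 had an end value whose gap to the nearest other exceeded 0.625 of the range, and 7 of the 10 were at litter 5. Chance gives such a gap in about 1 of 20 independent groups. The 45 groups share the same libraries, so their count cannot be set against that rate. The ratio of gap to range was 0.818 for Tlr1 in ErbB4FF, 0.640 for Tlr7 in ErbB4FF, 0.749 for Tlr8 in ErbB4myeKO, 0.693 for Tlr8 in ErbB4FF and 0.668 for Tlr13 in ErbB4FF, each lowest at litter 5. Litter 5 was also lowest for Cd14 in ErbB4myeKO (0.697) and for Unc93b1 in ErbB4FF (0.812). Ly96 in ErbB4FF was lowest at litter 3 (0.692, 20.7 TPM), and the Ly96 ratio was lowest at litter 2 (0.715, 15.3 against 52.0 TPM). The Irak4 ratio was highest at litter 4 (0.651, 11.2 against 8.94 TPM).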

How the results depend on the processing

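Of 153 alternative values of the 9 receptors' log2 fold changes, 147 kept the direction and the side of the threshold of the adjusted p, and the direction held throughout for 6 receptors. The exceptions were Tlr1 (main value -0.01), at 0.03 with the covariate from Y-linked transcripts and 0.01 with the same total per library, and values with a litter left out, which ranged from -0.08 to 0.06 for Tlr1 (0.04 without litter 2, 0.06 without litter 6), from -0.24 to 0.10 for Tlr4 and from -0.21 to 0.10 for Tlr13 (0.10 without litter 2 for both). Part of the agreement of the 147 values was given in advance. Leaving out the block or the trend, or changing the filter, cannot move the log2 fold change of a receptor. No gene passed the adjusted threshold in the main fit, so keeping its side says little. With the most abundant transcript alone, Tlr3 went from -0.25 to -0.05, and without litter 2 Tlr3, Tlr7, Tlr8 and Tlr9 went to -0.15, -0.08, -0.07 and -0.09. With no replicate block, 75 genes had an unadjusted p under 0.05 in place of 721, and with the length centring, chosen after seeing the data, no receptor reached one. With a litter left out, genes with an unadjusted p under 0.05 numbered 413 to 864 (413 without litter 2 and 458 without litter 4), genes with an adjusted p under 0.05 numbered 0 to 1 (1 without litter 3), receptors with an unadjusted p under 0.05 numbered 0 to 2, and 0 neighbours were separated. With 5 litters an exact test cannot go below 0.0625. The causes of these changes were not tested. With no counts or depth per library in the table, no floor can be set for Tlr5, which is listed at 0, or for Erbb4, and genes with several TPM in other libraries are also listed at 0 in some (Rnf216 in both of litter 5, Traf3 in 1 of them).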
